A study of Mus musculus with 9 samples.

Results

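A set of 10 genes of fibroblasts and of the matrix they secrete was followed from embryonic stem cells to neonatal and adult heart muscle cells, namely Dcn, Lum, Pdgfra, Tcf21, Thy1, Ddr2, Fn1, Fstl1, Sparc and Postn. All probes annotated to these symbols were taken, 23 of the 45281 on the array, and each is described on its own because probes of one gene gave different readings. The 9 samples were mouse cells, 3 in each of 3 groups. The first was pluripotent embryonic stem cells kept undifferentiated (mES, source name mES_TBV2), the second neonatal heart muscle cells isolated from whole heart at 1 day of age (CMp), and the third adult heart muscle cells isolated from left ventricle at 2 months (CMa). None was treated and all are described as cultured, while the sources used here do not state how the cells were purified, the strain of the mice or the animals behind each replicate, so that a p-value here rests on the spread among the samples alone, which may be technical. Total RNA was measured on Illumina bead arrays. Between CMp and CMa both the age and the part of the heart differ, and their effects cannot be told apart.

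Cardiac fibroblasts are the stromal cells that build the collagen matrix between cardiomyocytes. Many descend from the epicardium, and in mice the transcription factor Tcf21 and the growth factor receptor Pdgfra are needed for them to form. Matricellular proteins such as Sparc and periostin (Postn) bind matrix and cell surfaces without being its main structural fibres, and are known for high levels in the growing or injured heart.

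In brief, 8 of the 10 genes had at least one probe that was tested, and Ddr2 and Postn were at or near background on nearly all arrays. By their brightest probes all 8 tested genes were lower in adult than in neonatal cardiomyocytes, as were 24.8% of all 10800 genes tested. Dcn, Lum, Pdgfra and Tcf21 were undetected in mES, whereas Fn1, Fstl1, Sparc and Thy1 were detected there by their brightest probe on all 3 arrays. A probe was called detected on an array where its detection p-value, which ranks its signal against the background signals of that array, was under 0.01. Of the 23 probes, 17 were detected on at least 3 of 9 arrays and were tested. Levels are quantile-normalized, background-corrected intensities on the log2 scale. A level of 1 probe cannot be set against that of another probe, since probes differ in brightness, so orders below are orders of groups within a probe. Log2 changes are given ± SE from limma's linear model, fitted to all 19707 kept probes, with Benjamini-Hochberg adjusted p-values, and a change was called at an adjusted p under 0.05.

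The array medians lay between 88.7 and 112.2 signal units, and 30.4% to 39.6% of probes were detected on an array, with the lowest shares in CMa. The groups matched their labels, as all 8 cardiomyocyte markers examined were called higher in CMp and in CMa than in mES. The 4 pluripotency markers examined, Nanog, Pou5f1, Sox2 and Zfp42, were detected in mES and called lower in CMp and in CMa. All 4 were undetected on the CMa arrays, and all but Zfp42 on the CMp arrays. CMp replicate 1 stood apart from the other CMp arrays. Of 15237 probes detected on all 3 CMp arrays, 11.70% lay there more than 1 log2 unit outside the other 2 arrays, against 0.02% for CMp replicate 2. For CMa replicate 3 the share was 2.48%, of 12683 probes. For the probes that lay outside on these arrays, the change from CMp to CMa is also given without both of them.

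**Figure D1:**
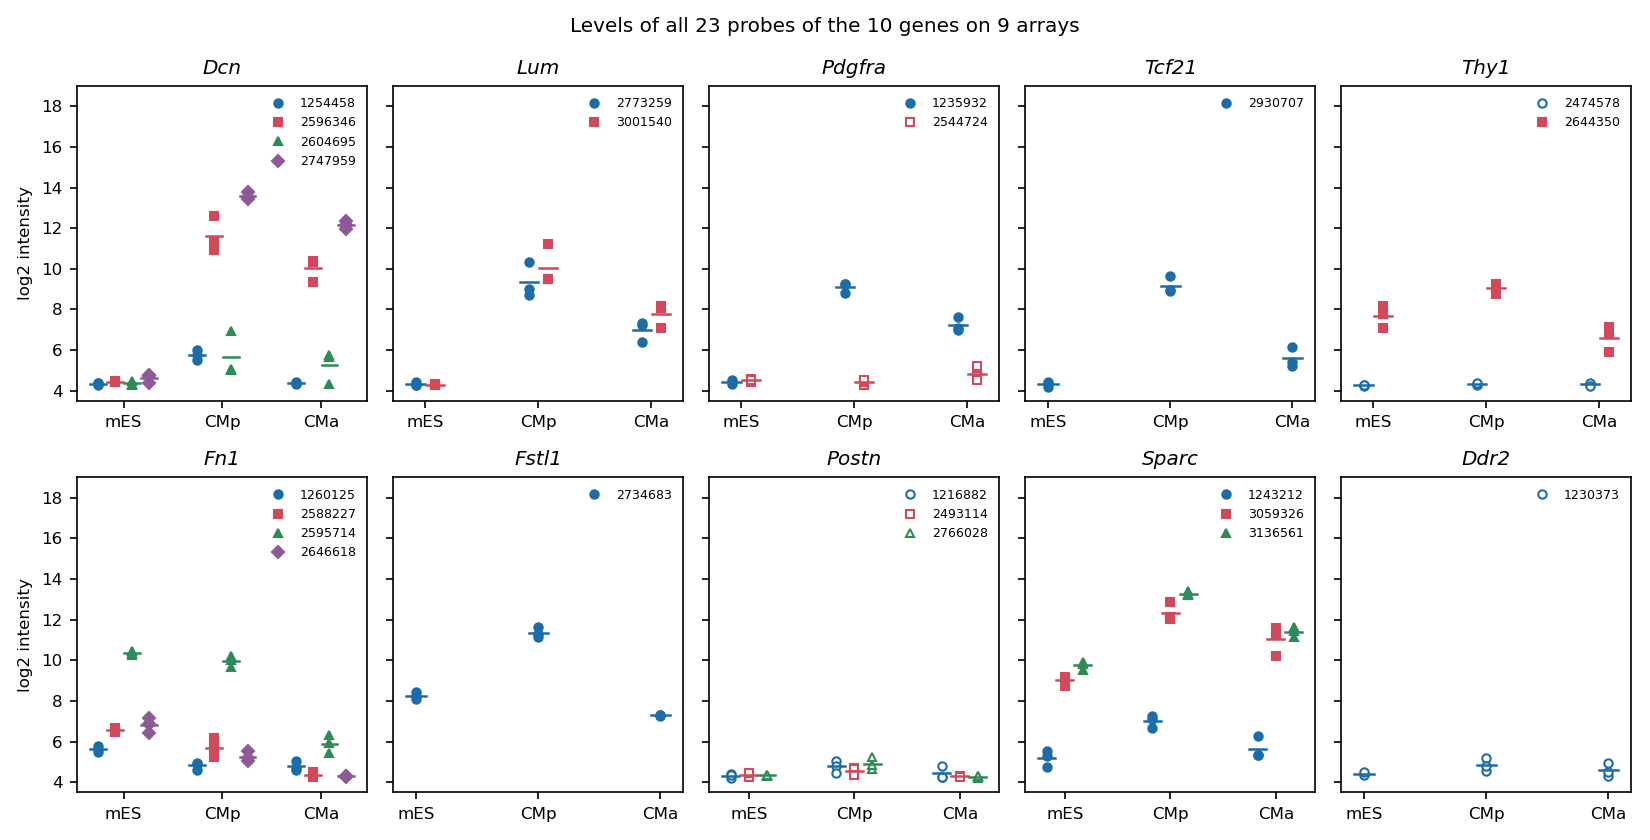
Log2 intensity (y axis) of all 23 probes in mES, CMp and CMa (x axis), a panel per gene, a point per array and a line at each group mean (n = 3). Filled symbols are the 17 tested probes and open symbols the 6 others, and probe numbers are given without the prefix ILMN. The tested probes of Dcn, Lum, Pdgfra and Tcf21 have their highest mean in CMp and lie at background in mES, while the brightest Fn1 probe is high in mES and CMp and low in CMa.

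The promoters of Tcf21, Fstl1 and Sparc are printed as the reference sequence around the start of a transcription factor and of 2 secreted proteins whose levels peaked in CMp. RefSeq's table (GRCm38.p6) held an entry for 6 of the 10 genes, and none for Dcn, Lum, Thy1 or Fn1. Each window runs from 250 bases before to 50 bases after the annotated start, on the strand of the gene. The windows lie at chr10:22820094-22820393 (minus strand) for Tcf21, at chr16:37776805-37777104 (plus strand) for Fstl1 and at chr11:55420031-55420330 (minus strand) for Sparc. Capitals mark matches on either strand to TATAAA, the TATA box, to CAGCTG, an E-box of the kind bound by basic helix-loop-helix factors, the family of Tcf21, or to TGANTCA, the AP-1 motif.
Tcf21: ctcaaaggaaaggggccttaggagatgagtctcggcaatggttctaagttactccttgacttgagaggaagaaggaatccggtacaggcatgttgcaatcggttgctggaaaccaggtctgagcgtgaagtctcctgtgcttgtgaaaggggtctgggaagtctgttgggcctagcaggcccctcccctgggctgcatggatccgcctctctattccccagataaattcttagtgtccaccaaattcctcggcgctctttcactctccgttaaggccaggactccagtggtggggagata
Fstl1: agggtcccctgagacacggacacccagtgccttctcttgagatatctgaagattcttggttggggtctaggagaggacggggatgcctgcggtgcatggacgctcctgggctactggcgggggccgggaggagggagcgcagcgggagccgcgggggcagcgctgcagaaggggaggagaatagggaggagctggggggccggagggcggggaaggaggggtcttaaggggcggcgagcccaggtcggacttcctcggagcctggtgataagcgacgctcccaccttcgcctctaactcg
Sparc: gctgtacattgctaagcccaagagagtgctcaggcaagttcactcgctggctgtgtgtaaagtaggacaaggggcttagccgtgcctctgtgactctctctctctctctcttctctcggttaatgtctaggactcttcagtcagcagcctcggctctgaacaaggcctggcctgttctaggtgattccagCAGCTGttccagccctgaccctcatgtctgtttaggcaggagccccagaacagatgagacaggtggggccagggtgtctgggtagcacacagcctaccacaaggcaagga
Of these 3 windows that of Sparc held a match, 1 copy of CAGCTG, which 16.3% of 32851 promoter windows of this length held. TATAAA was found in 13.6% of all windows and TGANTCA in 7.8%.

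Decorin (Dcn) and lumican (Lum) are small leucine-rich proteoglycans that bind collagen fibrils, and their genes are neighbours on mouse chromosome 10 among protein-coding genes of the RefSeq annotation. The brightest Dcn probe, ILMN_2747959, read 4.38, 4.71 and 4.78 in mES, 13.80, 13.52 and 13.46 in CMp, and 12.15, 12.35 and 11.97 in CMa. It was undetected on every mES array and its 3 groups did not overlap. Dcn by this probe was at least 386-fold higher in CMp than in mES (adjusted p = 2.15e-10) and at least 143-fold higher in CMa than in mES (adjusted p = 4.22e-10). These bounds set mES at the lowest detected level of each array. From CMp to CMa it fell by 1.44 ± 0.18 on the log2 scale, 2.71-fold (adjusted p = 0.000137).

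The other 3 Dcn probes gave the same order of CMp above mES with other sizes. ILMN_2596346 read 12.58, 11.32 and 10.93 in CMp and 10.41, 10.35 and 9.34 in CMa, with mES at background (4.42 to 4.48). Its CMp level was at least 97.7-fold above mES (adjusted p = 1.45e-07), and its change from CMp to CMa was -1.57 ± 0.41 (adjusted p = 0.00932). Without both CMp replicate 1 and CMa replicate 3 the latter was -0.74 ± 0.18 (adjusted p = 0.00571), against -1.24 ± 0.19 for the brightest probe (adjusted p = 0.00044). ILMN_2604695 was dim, with 6.94, 5.01 and 5.06 in CMp and 5.77, 5.66 and 4.31 in CMa, and these groups overlapped. Its change from CMp to CMa was -0.42 (95% confidence interval -1.57 to 0.72, adjusted p = 0.541), and without CMp replicate 1 it was 0.21. It was called higher in CMp than in mES (adjusted p = 0.0425), but in 9 of 20 alternative settings it was not. These were each mES replicate left out (adjusted p = 0.0823, 0.103 and 0.0934), CMp replicate 1 left out (adjusted p = 0.123), CMa replicate 2 left out (adjusted p = 0.0513), no background correction, an offset of 50, no detection filter and the authors' normalized matrix. In CMa against mES it was not called (adjusted p = 0.147). It was called there without CMp replicate 1 (adjusted p = 0.0304), without CMa replicate 3 (adjusted p = 0.0326) and without both (adjusted p = 1.46e-05). With cyclic loess (adjusted p = 0.0288) and with only the 2 groups compared (adjusted p = 0.0444) it was called too. Without both CMp replicate 1 and CMa replicate 3 this probe was called higher in CMa than in CMp, by 0.70 (adjusted p = 0.00402), against the other Dcn probes. ILMN_1254458, which is annotated to a cDNA clone record and not to a RefSeq transcript, was detected in CMp alone, at 5.51, 6.01 and 5.78. It was kept for testing through CMp alone, so that a higher level there follows from the detection rule, and was at least 1.70-fold above mES. Its change from mES to CMa was not called (0.05, interval -0.32 to 0.42, adjusted p = 0.814), but was called with cyclic loess (0.46, adjusted p = 0.0255). All 4 Dcn probes were undetected in mES, so that their folds over mES are lower bounds, and the lower bounds of the 2 dim probes leave the size open. The sources used here do not say where on the transcript each probe lies.

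The brighter Lum probe, ILMN_3001540, read 4.27, 4.32 and 4.29 in mES, 11.22, 9.49 and 9.49 in CMp, and 8.15, 8.06 and 7.09 in CMa. The groups did not overlap, and CMp replicate 1 was the highest and CMa replicate 3 the lowest of its group. Lum was at least 33.5-fold higher in CMp (adjusted p = 1.28e-06) and at least 6.81-fold higher in CMa (adjusted p = 4.49e-05) than in mES, where it was undetected. From CMp to CMa it fell by 2.30 ± 0.44 (adjusted p = 0.00187), and by limma without both deviating arrays the change was -1.39 ± 0.15 (adjusted p = 5.87e-05). The second Lum probe, ILMN_2773259, gave -2.36 ± 0.38 for the same comparison (adjusted p = 0.000658), or -1.60 ± 0.17 without both arrays (adjusted p = 4.68e-05), and at least 20.4-fold between CMp and mES. In the authors' normalized matrix CMa above mES was called for neither Lum probe (adjusted p = 0.0946 and adjusted p = 0.0544).

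Pdgfra encodes the alpha receptor for platelet-derived growth factor, a surface tyrosine kinase that marks fibroblasts in the heart. Probe ILMN_1235932 read 4.41, 4.54 and 4.32 in mES, 8.82, 9.23 and 9.25 in CMp, and 7.00, 7.10 and 7.64 in CMa. The groups were fully separated, in the order CMp, CMa, mES. Pdgfra was at least 17.2-fold higher in CMp than in undetected mES (adjusted p = 2.66e-08), at least 4.74-fold higher in CMa (adjusted p = 6.95e-07), and fell by 1.86 ± 0.21 from CMp to CMa (adjusted p = 6.04e-05). Its CMp replicate 1 was the lowest of the group, unlike that of Lum. The second probe, ILMN_2544724, annotated to a cDNA clone record, was undetected on all 9 arrays (4.29 to 5.20).

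Tcf21, the basic helix-loop-helix factor of epicardial and fibroblast lineages, was read by 1 probe. It stood at 4.20, 4.40 and 4.44 in mES, 9.63, 8.97 and 8.93 in CMp, and 6.13, 5.41 and 5.23 in CMa, where it was detected on 2 of 3 arrays. No group overlapped another. It was at least 18.1-fold higher in CMp than in mES (adjusted p = 1.23e-07) and fell by 3.58 ± 0.27, 12.0-fold, from CMp to CMa (adjusted p = 4.49e-06). Its CMa level was at least 1.51-fold above mES (adjusted p = 0.00169), which the authors' normalized matrix did not call (adjusted p = 0.176).

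Thy1, a glycolipid-anchored surface protein of fibroblasts that T cells and neurons also carry, was detected in all 3 groups by probe ILMN_2644350. It read 7.77, 7.10 and 8.16 in mES, 8.76, 9.27 and 9.09 in CMp, and 5.90, 7.13 and 6.81 in CMa. CMp stood clear of both other groups, and CMa and mES overlapped at 7.10 to 7.13. Thy1 rose by 1.37 ± 0.35 from mES to CMp (adjusted p = 0.00489), a call lost with median scaling (0.68, adjusted p = 0.101), and fell by 2.42 ± 0.35 from CMp to CMa (adjusted p = 0.000284). Its CMa level was called below mES (-1.06 ± 0.35, adjusted p = 0.018), which failed the threshold without mES replicate 1 or mES replicate 3, without CMa replicate 1, and without the detection filter (adjusted p from 0.0526 to 0.0787). The second Thy1 probe, ILMN_2474578, was undetected on all 9 arrays. In the authors' normalized matrix these 2 probes carry each other's values, so the matrix shows the same rise and fall under the other identifier, and which source has the identifiers right is not known.

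Ddr2, a collagen-binding receptor tyrosine kinase of mesenchymal cells, had 1 probe, which read 4.40, 4.37 and 4.51 in mES, 4.56, 5.17 and 4.78 in CMp, and 4.31, 4.95 and 4.49 in CMa. It was detected on CMp replicate 2 alone and was not tested. A difference in Ddr2 was not measurable at this signal.

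Fibronectin (Fn1), a matrix glycoprotein that links integrins to collagen, had all 4 of its probes detected on every mES array. Of the genes above only Thy1 was detected there. The brightest, ILMN_2595714, read 10.25, 10.35 and 10.47 in mES, 10.19, 10.04 and 9.68 in CMp, and 5.42, 6.35 and 5.91 in CMa. CMa lay far below both other groups, while mES and CMp lay side by side without overlap. The change from CMp to CMa was -4.07 ± 0.24, 16.9-fold (adjusted p = 1.01e-06), and that from mES to CMa was -4.46 ± 0.24 (adjusted p = 6.68e-08). Between mES and CMp the change of -0.39 was not called (95% confidence interval -0.92 to 0.15, adjusted p = 0.169). It was called with median scaling (-1.17, adjusted p = 0.00129), without background correction (adjusted p = 0.0428) and with the authors' normalized matrix (adjusted p = 0.0294).

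The 3 dimmer Fn1 probes were lower in CMp than in mES, by 0.85 ± 0.22 (ILMN_2588227, adjusted p = 0.00621), by 1.57 ± 0.21 (ILMN_2646618, adjusted p = 7.94e-05) and by 0.80 ± 0.19 (ILMN_1260125, adjusted p = 0.00303). All 3 were undetected on every CMa array, so that their fall into CMa has at most a bound. ILMN_2646618 read 6.87, 6.42 and 7.16 in mES, 5.52, 5.05 and 5.18 in CMp and 4.29, 4.28 and 4.31 in CMa, at least 2.50-fold below mES (adjusted p = 1.83e-06). Its change from CMp to CMa was called by limma (-0.95 ± 0.21, adjusted p = 0.00415) but has no bound. Its CMp mean of 5.25 lay below the lowest detected level of every CMa array (5.31 to 5.64). ILMN_2588227 was at least 2.08-fold below mES in CMa (adjusted p = 8.16e-06) and at least 1.15-fold below CMp (adjusted p = 0.000771). ILMN_1260125 read 5.62 ± 0.15 (SD, n = 3) in mES, 4.83 ± 0.20 in CMp and 4.78 ± 0.24 in CMa, was detected on 1 of 3 CMp arrays, and its change from CMp to CMa was not called (-0.05, interval -0.46 to 0.36, adjusted p = 0.848). By all 4 Fn1 probes mES had the highest mean, and 3 of 4 were called lower in CMp.

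Fstl1 encodes a secreted glycoprotein related to follistatin and to Sparc, and was measured by 1 probe. It read 8.25, 8.09 and 8.46 in mES, 11.63, 11.28 and 11.13 in CMp, and 7.33, 7.32 and 7.25 in CMa. The groups did not overlap, and CMa was the lowest. Fstl1 rose by 3.08 ± 0.18, 8.43-fold, from mES to CMp (adjusted p = 1.7e-07) and fell by 4.05 ± 0.18, 16.5-fold, from CMp to CMa (adjusted p = 2e-07). In CMa it was below mES by 0.97 ± 0.18 (adjusted p = 0.000605).

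Sparc, a collagen-binding matricellular protein, was detected in all groups by 2 bright probes. ILMN_3136561 read 9.53, 9.90 and 9.82 in mES, 13.26, 13.39 and 13.22 in CMp, and 11.45, 11.64 and 11.15 in CMa. The order CMp, CMa, mES held without overlap. It rose by 3.54 ± 0.18, 11.6-fold, from mES to CMp (adjusted p = 6.73e-08), fell by 1.87 ± 0.18 from CMp to CMa (adjusted p = 2.17e-05), and in CMa stood 1.67 ± 0.18 above mES (adjusted p = 1.22e-05). ILMN_3059326 gave 3.33 ± 0.35 from mES to CMp (adjusted p = 1.2e-05) and -1.32 ± 0.35 from CMp to CMa (adjusted p = 0.0104), with CMa replicate 3 at 10.22 against 11.28 and 11.59. Without both CMp replicate 1 and CMa replicate 3 the latter change was -0.64 ± 0.20 (adjusted p = 0.0202). The dim ILMN_1243212 was called for CMp above mES (1.80 ± 0.30, adjusted p = 0.000373) and CMa below CMp (-1.36 ± 0.30, adjusted p = 0.00437), and not for CMa against mES (0.45, interval -0.23 to 1.12, adjusted p = 0.207). With cyclic loess the last was called (0.90, adjusted p = 0.016). In the authors' normalized matrix ILMN_3059326 carries the values of ILMN_1243212, and ILMN_1243212 carries values that match no Sparc probe.

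Postn, which encodes periostin, had 3 probes, none of which was tested. ILMN_2766028 read 4.35, 4.31 and 4.34 in mES, 5.23, 4.65 and 4.85 in CMp, and 4.31, 4.23 and 4.31 in CMa. ILMN_1216882 lay between 4.23 and 5.07 and ILMN_2493114, annotated to a cDNA clone record, between 4.24 and 4.72 over the 9 arrays. The first of these and ILMN_2766028 were detected on CMp replicate 1 alone. All 3 group means were highest in CMp, at 4.79 ± 0.30 for ILMN_1216882, 4.58 ± 0.18 for ILMN_2493114 and 4.91 ± 0.30 for ILMN_2766028 (SD, n = 3), but these values are not above background on most arrays. No change in Postn was detectable with these probes.

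**Figure D2:**
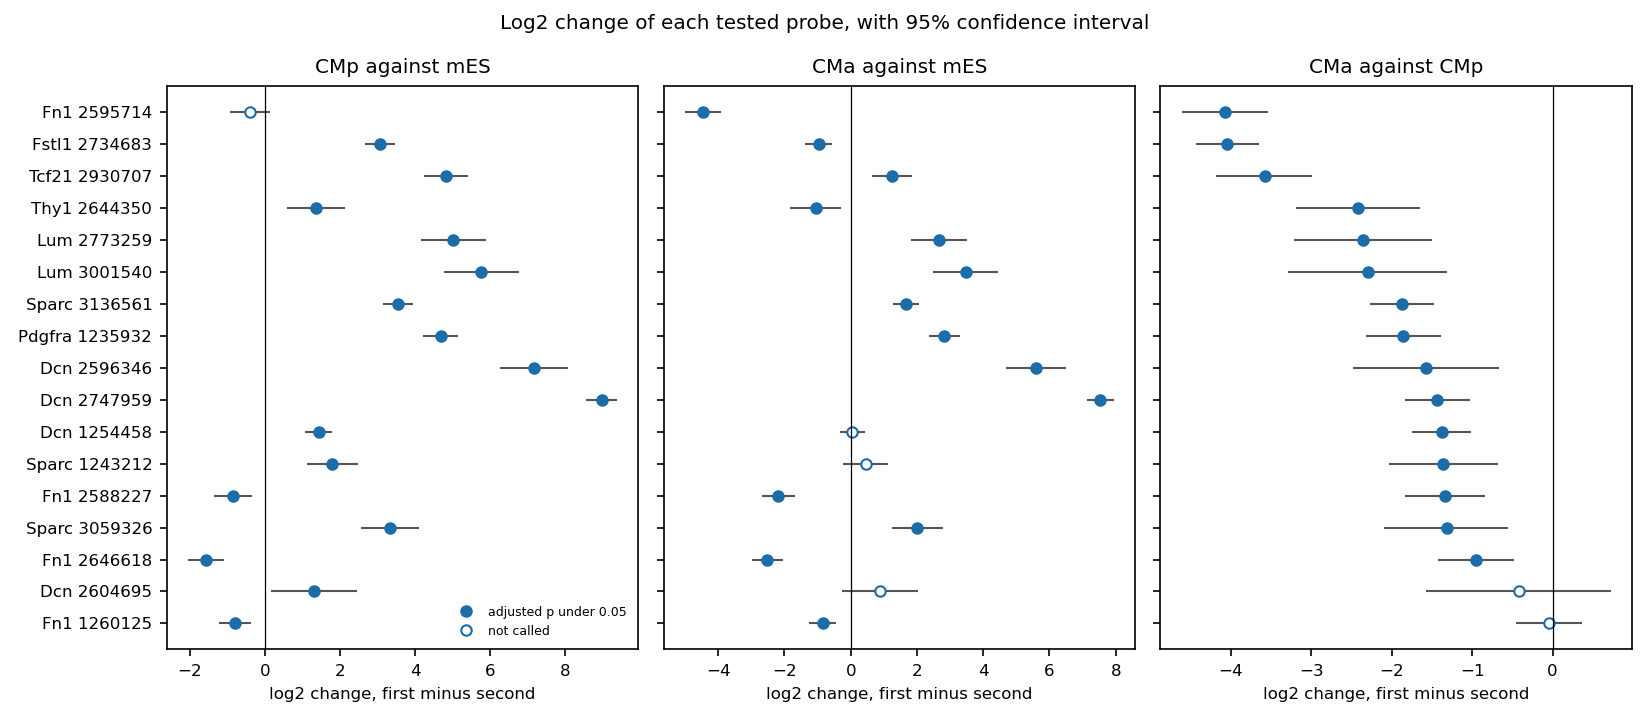
Log2 change (x axis, first group minus second) of each of the 17 tested probes (y axis) in the 3 comparisons, points with 95% confidence intervals from limma. Filled points were called at an adjusted p under 0.05, and in CMa against CMp no point lies above 0, from -4.07 for the brightest Fn1 probe to -0.05 for ILMN_1260125.

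Counted over probes, CMp against mES gave 13 of 17 called higher and 3 lower, the latter all of Fn1, with a median log2 change of 3.08. The background for this comparison was 71.1% of all kept probes called, 32.4% higher and 38.7% lower, with a median of -0.14. CMa against mES gave 8 higher and 6 lower (median 0.88), where 73.5% of all kept probes were called, 33.2% higher and 40.3% lower (median -0.15). The 6 lower were the 4 Fn1 probes, Fstl1 and Thy1. In CMa against CMp 15 of 17 were lower and none higher by limma (median -1.57), where 47% of all kept probes were called, 23.8% lower and 23.2% higher (median -0.01). All 17 changes were below 0, the highest being -0.05, so that the count higher was also 0 at an unadjusted p under 0.05. The groups did not overlap for 17, 13 and 15 of the 17 probes in the 3 comparisons, against 75.4%, 77.9% and 51.5% of all kept probes. With the brightest probe of each of the 8 genes, 7 were higher in CMp than in mES (73.1% of all genes called, 34.9% higher and 38.2% lower). In CMa against mES 5 were higher and 3 lower (76% called, 36.3% higher and 39.8% lower). All 8 were lower in CMa than in CMp, with a median of -2.36 (50% called, 24.8% lower and 25.3% higher). The comparisons share arrays pairwise and are not independent of each other. Probes of one gene share their target, so that these counts are not counts of independent measurements, and Dcn ILMN_1254458, which passed the detection rule through CMp alone, had to be higher there and is among the 13 and the 15.

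The log2 change from CMp to CMa of the brightest probe was -1.44 for Dcn, -1.86 for Pdgfra, -1.87 for Sparc, -2.30 for Lum and -2.42 for Thy1, and reached -3.58 for Tcf21, -4.05 for Fstl1 and -4.07 for Fn1. Differences between genes were not tested, and probes near background, such as Tcf21 and Fn1 in CMa, understate a fold. In such samples of many cells, fewer cells of a type and less RNA per cell cannot be told apart.

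**Figure D3:**
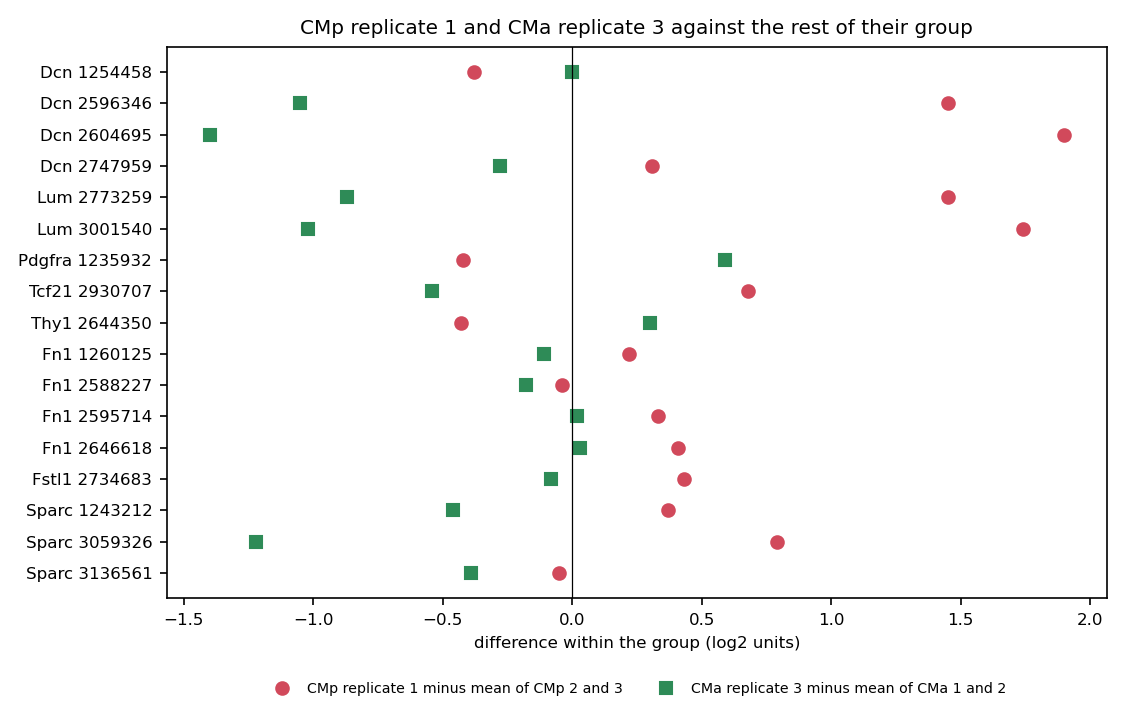
Difference in log2 units (x axis) of CMp replicate 1 from the mean of CMp replicates 2 and 3 (circles) and of CMa replicate 3 from the mean of CMa replicates 1 and 2 (squares), for the 17 tested probes (y axis). Both Lum probes and 2 Dcn probes lie 1.45 to 1.90 higher in CMp replicate 1 and 0.87 to 1.40 lower in CMa replicate 3, while Pdgfra lies the other way.

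Replicates differed by more than 1 log2 unit in Lum, in part of the Dcn probes, in 1 Sparc probe and in Thy1. Thy1 ran from 5.90 to 7.13 in CMa and from 7.10 to 8.16 in mES. In CMp replicate 1 the Lum probes stood 1.45 and 1.74 above the mean of the other CMp arrays, and the Dcn probes ILMN_2596346 and ILMN_2604695 stood 1.45 and 1.90 above it. The brightest Dcn probe was 0.31 above, the brightest Sparc probe 0.05 below (-0.05), Pdgfra -0.42 and Thy1 -0.43. In CMa replicate 3 the same Lum probes were at -0.87 and -1.02, and these Dcn probes at -1.05 and -1.40, against -0.28 for the brightest Dcn probe and 0.59 for Pdgfra, and Sparc ILMN_3059326 was at -1.22 against -0.39 for the brightest Sparc probe. The 2 Lum probes deviated alike, whereas the Dcn probes and the Sparc probes each differed among themselves. Without CMp replicate 1, 15 of 17 probes were still called lower in CMa than in CMp, where 5386 of all 19707 kept probes were lower. Without both CMp replicate 1 and CMa replicate 3 also 15 were lower, where 5808 of all kept probes were. In that setting 1 probe, Dcn ILMN_2604695, was called higher in CMa (0.70, limma's adjusted p = 0.00402).

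Genes of the same kind were counted by the brightest kept probe of each. In this reading 24.8% of all 10800 genes were lower and 25.3% higher in CMa than in CMp, with a median of 0.01, and 34.9% were higher and 38.2% lower in CMp than in mES, with a median of -0.09. Of 15 other fibroblast markers tested, 14 were higher in CMp than in mES and none was lower (median 2.63), and 12 fell from CMp to CMa with none called higher (median -1.69). Col1a2 and Fap are among the 14 and the 12. Both passed the detection rule through CMp alone, so that a higher level there follows from that rule. Without CMp replicate 1 the higher count from CMp to CMa was 1. Col1a1, a chain of type I collagen, was at least 94.6-fold higher in CMp than in mES (adjusted p = 2.75e-09) and 48.1-fold lower in CMa than in CMp (adjusted p = 1.32e-07), whereas the authors' normalized matrix gave 0.00 for the latter under this probe identifier (adjusted p = 0.946). Dpt, the matrix protein dermatopontin, was at least 58.3-fold higher in CMp than in mES (adjusted p = 1.74e-09). From CMp to CMa the type III collagen gene Col3a1 changed by -4.04 ± 0.17 (adjusted p = 1.46e-07) and the microfibril-associated gene Mfap4 by -3.84 ± 0.20 (adjusted p = 5.27e-07). The 2 kept Col3a1 probes gave -4.04 and -2.29.

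Of the relatives of Dcn and Lum, 4 of 11 small leucine-rich proteoglycan genes were tested. All 4 were higher in CMp than in mES (median 5.66), biglycan (Bgn) by 6.83 ± 0.17 (adjusted p = 6.87e-10) and osteoglycin (Ogn) at least 34.3-fold (adjusted p = 5.83e-09). The 3 kept Ogn probes gave log2 changes of 1.15 to 5.79 in this comparison. From CMp to CMa 3 fell, Bgn by 2.54 ± 0.17 (adjusted p = 2.18e-06), Prelp by 1.63 ± 0.20 (adjusted p = 0.000106) and Fmod at least 2.08-fold (adjusted p = 9.01e-05). Fmod passed the detection rule through CMp alone. Ogn went the other way and rose by 0.85 ± 0.21 (adjusted p = 0.00661), its 3 kept probes giving 0.85 to 1.28. Its values were 4.31 on average in mES, 10.10 in CMp and 10.95 in CMa.

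Of 16 other matricellular genes tested, 13 were higher in CMp than in mES and 1 lower (median 2.09), and 12 fell from CMp to CMa with none called higher (median -1.98). Comp is among the 13 and the 12. It passed the detection rule through CMp alone, so that a higher level there follows from that rule. Tnc, tenascin C, was undetected in CMa, at least 13.7-fold below CMp (adjusted p = 4.66e-07), and was at least 19.2-fold higher in CMp than in mES (adjusted p = 8.16e-08). By this probe it passed the detection rule through CMp alone. The 3 kept Tnc probes gave -4.86 to -1.48 from CMp to CMa and 1.68 to 4.83 from mES to CMp. Thbs2, thrombospondin 2, was at least 54.7-fold higher in CMp than in mES (adjusted p = 1.07e-08) and 28.9-fold lower in CMa (-4.85 ± 0.24, adjusted p = 3.18e-07). The transforming growth factor beta-induced gene Tgfbi fell by 3.76 ± 0.18 from CMp to CMa (adjusted p = 3.19e-07), its 2 kept probes giving -3.76 and -2.46. The member lower in CMp than in mES was Smoc1, a Sparc-related gene (-0.75 ± 0.26, adjusted p = 0.0251), which did not hold without mES replicate 1 or 2, without CMp replicate 2 or 3 and without the detection filter (adjusted p from 0.0556 to 0.0757). The 4 not called from CMp to CMa were Sparcl1, Spock2, Ccn1 and Ccn5.

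Receptors and ligands around Pdgfra and Ddr2 were counted in the same way. Of 9 tested genes of platelet-derived growth factor signalling and collagen binding, 8 were higher and 1 lower in CMp than in mES (median 2.21), and 4 fell from CMp to CMa (median -0.63), or 6 without CMp replicate 1. Pdgfb, a ligand, rose by 3.63 ± 0.33 from mES to CMp (adjusted p = 4.27e-06), while the ligand gene Pdgfc was at least 3.82-fold lower there (adjusted p = 1.37e-05), which was not called in the authors' normalized matrix (adjusted p = 0.202). Pdgfc passed the detection rule through mES alone. Itga2, a collagen receptor subunit, was at least 4.48-fold higher in CMp than in mES (adjusted p = 7.75e-06) and at least 3.19-fold lower in CMa than in CMp (adjusted p = 3.6e-05). Itga2 passed the detection rule through CMp alone. Itgb1, its partner chain, and Pdgfa, a ligand of Pdgfra, fell from CMp to CMa by 1.11 ± 0.21 (adjusted p = 0.00186) and 0.94 ± 0.16 (adjusted p = 0.000776). The 2 kept Itgb1 probes gave -1.11 and -0.23.

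Of 6 fibronectin receptors and matrix partners tested, 5 were higher in CMp than in mES (median 3.28) and 5 fell from CMp to CMa (median -2.69). Lox, which crosslinks collagen and elastin, was at least 18.9-fold higher in CMp than in mES (adjusted p = 5.52e-09) and at least 13.4-fold lower in CMa than in CMp (adjusted p = 6.61e-08). It passed the detection rule through CMp alone. The fibulin gene Fbln2 rose by 5.92 ± 0.18 and fell by 3.02 ± 0.18 in the same comparisons (adjusted p = 1.89e-09 and adjusted p = 9.91e-07), and the fibronectin receptor subunit Itgav was at least 5.62-fold lower in CMa than in CMp (adjusted p = 0.000183). From CMp to CMa the 4 kept Itgav probes gave -2.95 to -1.04, and the 2 of Fbln2 gave -3.02 and -1.91. Of 10 myofibroblast and transforming growth factor beta genes, 9 were higher in CMp than in mES (median 2.85) and 9 fell from CMp to CMa (median -1.69). The myosin light chain gene Myl9 rose by 5.49 ± 0.35 from mES to CMp (adjusted p = 2.94e-07) and fell by 4.54 ± 0.35 into CMa (adjusted p = 5.06e-06). The receptor gene Tgfbr2 rose by 5.81 ± 0.19 from mES to CMp (adjusted p = 3.75e-09). Smooth muscle actin, Acta2, fell by 2.54 ± 0.23 from CMp to CMa (adjusted p = 1.54e-05) and the procollagen protease gene Bmp1 fell by 2.10 ± 0.33 (adjusted p = 0.000542). The 4 kept Bmp1 probes gave -2.11 to -0.37 in this comparison, and the 4 of Acta2 gave -3.30 to -2.45.

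**Figure D4:**
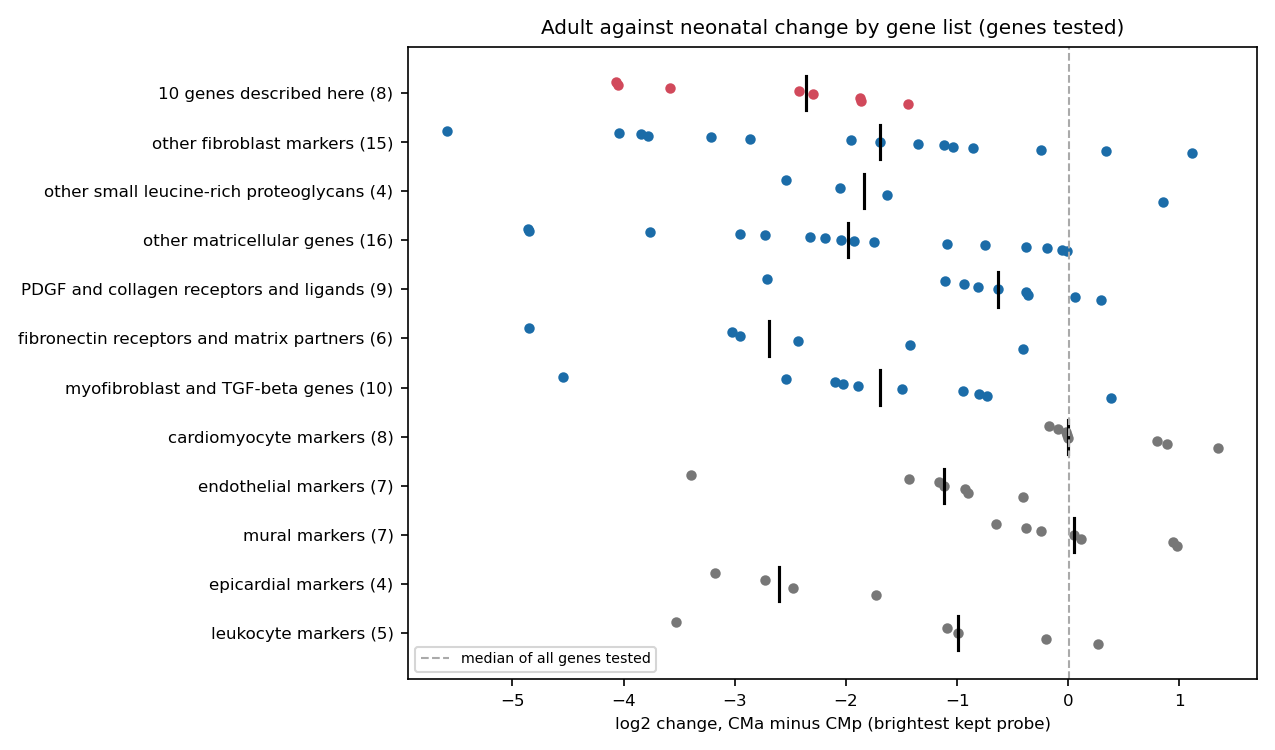
Log2 change from CMp to CMa (x axis, CMa minus CMp) of the brightest kept probe of each tested gene, a point per gene and a black line at each list's median, with the number of genes tested in brackets (y axis). The dashed line is the median of all 10800 genes, 0.01. All 8 points of the genes described here lie below 0, and the cardiomyocyte markers run from -0.17 to 1.35.

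Markers of other heart cells differed in whether they fell from CMp to CMa as these genes did. The summed linear intensity of the 8 tested genes was 2561 to 3051 in mES, 26223 to 32430 in CMp and 6997 to 9232 in CMa, without overlap between groups. Such a sum is carried by its brightest probes and does not weigh genes equally. In CMp these were the probes of Dcn (mean 13.59) and Sparc (mean 13.29). For the 8 cardiomyocyte markers the sums were 180873 to 183833 in CMp and 165708 to 205925 in CMa, and 3 of 8 were called higher and none lower in CMa (median -0.01). The 5 not called were the brightest, with means from 14.64 (Actc1 in CMa) to 15.26 (Tnnc1 in CMp), and these sums rest mostly on them. Whether the arrays resolve a change at such levels was not tested. Of 7 endothelial markers 6 were lower in CMa than in CMp (median -1.12), with sums of 16707 to 28838 in CMp and 8369 to 11416 in CMa. All 4 epicardial and mesothelial markers tested were lower in CMa (median -2.60), with sums of 711 to 860 in CMp and 106 to 126 in CMa, where Aldh1a2, Msln and Upk1b were undetected. These 3 were undetected in mES too and passed the detection rule through CMp alone, so that their lower level in CMa follows from that rule, and Upk3b is the marker left (-3.18 ± 0.22, limma's adjusted p = 3.1e-06). Of 7 mural markers none was lower and 2 were higher in CMa (median 0.05), with sums of 2064 to 2843 in CMp and 2945 to 3493 in CMa, and without CMp replicate 1 the lower count was 3. Leukocyte markers were lower in 3 of 5 cases (median -0.99), with sums of 707 to 1137 in CMp and 261 to 500 in CMa, where Adgre1 and Cd3e were undetected. Adgre1 was undetected in mES too and passed the detection rule through CMp alone. The 3 erythroid markers tested were lower in CMa, with sums of 32134 to 36004 in CMp and 2674 to 5415 in CMa, where Slc4a1 was undetected, and no glial marker passed the detection rule. Of the 8 tested genes in a fibroblast list of 10, of which 7 are genes described here and 5 of those were tested, all were lower in CMa than in CMp (median -2.36), and Col1a2 was undetected in CMa. Col1a2 was undetected in mES too, so that its lower level in CMa follows from the detection rule. The part of these cell types in the falls described above was not tested.

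The genes whose levels over the 9 arrays were most like those of Dcn were Cdc42ep3, Bves, a muscle membrane protein gene, and Ramp2, a receptor accessory protein gene, each with Pearson r = 0.998 to the brightest Dcn probe. Ramp2 stood at 6.92 ± 0.09, 11.39 ± 0.04 and 10.81 ± 0.30 in mES, CMp and CMa, and Bves at 5.07 ± 0.43, 11.03 ± 0.25 and 10.26 ± 0.07 (SD, n = 3). Those most like Tcf21 were Foxc1, a forkhead transcription factor gene (r = 0.997), the chemokine gene Cxcl16 (r = 0.995) and Cep95 (r = 0.994). Foxc1 stood at 4.46 ± 0.05, 7.28 ± 0.23 and 5.35 ± 0.21 in the 3 groups. These values describe likeness over 9 arrays that fall into 3 groups, and share the arrays and their scaling. No probe of Postn was kept, and it has no such value.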

How the data were processed

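RNA of 9 samples was read on Illumina arrays. The deposited scanner table holds, per the file headers, a bead signal intensity and a detection p-value for each probe and array, without normalization between arrays. The deposited series matrix holds log2 values made by the authors with lumi, per the submitters' processing notes, for which the sources used here give no version or settings. It was used as an alternative.

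In R 4.3.3 with limma 3.58.1, signals were corrected by nec, which infers the background from detection p-values, with 16 added, then quantile normalized between arrays and put on the log2 scale. A probe was kept if 3 or more of the 9 arrays gave a detection p under 0.01 (19707). The linear model (lmFit, eBayes) had 1 mean for each group over the 9 arrays, with Benjamini-Hochberg adjustment over all kept probes. For a probe that no array of a group detected, that group was raised to each array's lowest detected level and the fold is a bound. Symbols came from the platform annotation (16962 kept probes with a single symbol, 2745 without), updated through gene identifiers. Array number limits the precision. The code was tested on simulated data.

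Genes and lists were chosen with earlier results of these data known. All probes of the 10 genes are named. Of each list the up to 3 called genes that changed most from CMp to CMa, the up to 2 that changed most from mES to CMp, and up to 5 called against their list are named, and the 3 genes most like Dcn, Postn and Tcf21. Alternatives covered background, scaling, offset, source, filter, model, replicate block and each array left out.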

Additional observations from a re-analysis of the deposited data

How the results depend on the processing

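Across the alternatives, 333, 330 and 337 of 348 values kept direction and call in the comparisons of CMp with mES, of CMa with mES and of CMa with CMp, and 685 of 693 did for the named list genes. With 1 array left out, the counts of probes called for the genes described ranged from 12 to 13 higher and were 3 lower in CMp against mES, from 8 to 9 higher and 5 to 6 lower in CMa against mES, and were 0 higher and 15 lower in CMa against CMp. With 1 probe per gene, which leaves 8 tested, the counts were 7 higher and 0 lower, 5 higher and 3 lower, and 8 lower. With the authors' normalized matrix 10 were higher and 5 lower in CMp than in mES, 4 higher and 6 lower in CMa than in mES, and 12 lower in CMa than in CMp, where Sparc ILMN_1243212 changed by -0.11 in both comparisons with mES, Thy1 ILMN_2644350 by 0.01 in CMa against mES, and Col1a1 by -0.02 in CMp against mES. Those identifiers carry other values there, and which source is right was not tested. Without both CMp replicate 1 and CMa replicate 3, an alternative chosen after seeing the data, 1 probe was higher in CMa than in CMp, Dcn ILMN_2604695 at 0.70. That probe gave 0.21 without CMp replicate 1 and 0.06 without CMa replicate 3, in a range of -0.76 to 0.21 with 1 array left out. Fn1 ILMN_1260125 gave 0.11 with cyclic loess, 0.02 without CMp replicate 1, 0.05 without CMa replicate 2 and 0.06 without both arrays in CMa against CMp, and -0.19 to 0.05 with 1 array left out. Sparc ILMN_1243212 gave -0.11 in CMa against mES with median scaling. Fn1 ILMN_2646618 was not called in CMa against CMp with cyclic loess (adjusted p = 0.0754). The cause was not tested in these cases. Median scaling moved the median of all probes to -0.58, -0.81 and -0.21 and the share of higher calls from 45.6% to 33.8%, from 45.2% to 28.8% and from 49.4% to 32.6%. Whether replicate numbers pair the samples was not settled. Correlations of deviations ran from -0.15 to 0.48 for equal numbers and from -0.54 to 0.46 for unequal ones, and not every sample correlated best with its own number. Between CMp and CMa, replicates 1 gave 0.44, replicates 2 gave -0.15 and replicates 3 gave 0.48. Deviations from a mean of 3 arrays cannot exclude a pairing. With a replicate block the counts were 13 higher and 3 lower, 8 and 6, and 0 and 15. Signal near background limits Postn, Ddr2, Tcf21 and the dim Dcn and Fn1 probes.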
